A study of Mus musculus and blank sample with 191 samples.

Results

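Small leucine-rich proteoglycans (SLRPs) are secreted matrix proteins with a core of leucine-rich repeats, and most carry chondroitin, dermatan or keratan sulfate chains. They bind collagen fibrils and set fibril spacing and width, and several hold TGF-beta or act on cell surface receptors. In the endometrium they are known as products of the stromal fibroblasts, and the matrix they coat is remodelled with the estrous cycle and at implantation. The 9 genes described here were taken by their symbols from the count table, and all 9 were among the 14881 targets the authors kept of 19962. They were Dcn (decorin) and Bgn (biglycan), the class that carries chondroitin or dermatan sulfate, with Aspn (asporin), a relative of both that has an aspartate-rich stretch. The keratan sulfate class was Lum (lumican), Fmod (fibromodulin), Prelp (prolargin) and Omd (osteomodulin). Ogn (osteoglycin, or mimecan) and Podn (podocan) belong to smaller classes of the family.

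The study asked what a mutant thyroid hormone receptor does to the mouse uterus. Thra1 PV/+ mice carry, in every tissue, 1 knocked-in copy of the PV frameshift mutation in the gene of thyroid hormone receptor alpha 1, whose product cannot bind hormone and represses target genes. These mice are called PV here, and wild-type (WT) mice were their controls. Fixed, paraffin-embedded endometrial cores of females matched for estrous cycle were profiled with GeoMx, which releases barcoded RNA probes by light from regions drawn on a slide and counts them by sequencing. Regions of mucosa, glands and stroma were drawn on morphology with cytokeratin staining and labelled epithelium or stroma. The labels do not tell mucosa from gland, so an epithelium sum may hold both. Only regions of the first of 2 plates in the column names of the count table (95 of 189) were used, because on the second plate the marker scores given below went against many labels, with 32 of 57 epithelium and 19 of 37 stroma regions outside the range of their label on the first plate. Counts were summed per animal and compartment, since the animal is the replicate. This gave 6 PV and 8 WT epithelium sums from 31 and 29 regions, and 6 PV and 7 WT stroma sums from 21 and 14 regions. PV animals were 2.4 to 6.3 months old (median 4.1) and WT animals 4.0 to 9.0 (median 5.85), reading the unit of the age label as months. Animals are numbered here by age within each genotype, from PV1 to PV6 and from WT1 to WT8.

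Regions held 61690 to 3130397 counts (median 653387) and the sums 61691 to 13492532. PV2 had 1 region per compartment and the smallest sums, and WT4 had no stroma region. The mean log2 level of 12 epithelial markers minus that of 8 fibroblast markers was 0.54 to 3.94 in the 60 epithelium regions and -5.45 to -2.34 in the 35 stroma regions, with no overlap. The genotypes were taken from the labels, since the level of Thra does not tell the mutant copy from the normal one. Thra read 5.17 to 7.40 log2 CPM (a target's count scaled to the total of its sum, on the log2 scale) in PV epithelium and 5.07 to 5.69 in WT epithelium. In stroma it read 6.56 to 8.58 in PV and 5.87 to 7.03 in WT.

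The genes lie in groups on the mouse genome (build GRCm38/mm10, GENCODE annotation), and all are protein-coding. Dcn (chr10:97479609-97518143, plus strand) lies 47.0 kb before Lum (chr10:97565128-97572703, plus strand). On chromosome 13, Aspn (chr13:49544443-49567565), Omd (chr13:49582462-49592822) and Ogn (chr13:49608046-49624501) follow each other on the plus strand with gaps of 14.9 and 15.2 kb. All 3 lie inside the span of Cenpp (chr13:49464023-49652785), a kinetochore protein gene on the minus strand. Prelp (chr1:133910304-133921414, minus strand) and Fmod (chr1:134037254-134048277, plus strand) point away from each other across 116.0 kb. Podn (chr4:108014791-108096445, minus strand) and Bgn (chrX:73483602-73495933, plus strand) lie alone.

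The chromosome 13 neighbours are shown by the 250 bases before their RefSeq starts (GRCm38.p6), since Aspn and Omd went together over stroma regions and all 3 had age slopes past the unadjusted threshold in stroma, as given below. Capitals mark matches to AGGTCA, the half-site letters that nuclear receptors including thyroid hormone receptors read, and to TATAAA, each searched on both strands (TGACCT and TTTATA in reverse).
Aspn, chr13:49544193-49544442, plus strand: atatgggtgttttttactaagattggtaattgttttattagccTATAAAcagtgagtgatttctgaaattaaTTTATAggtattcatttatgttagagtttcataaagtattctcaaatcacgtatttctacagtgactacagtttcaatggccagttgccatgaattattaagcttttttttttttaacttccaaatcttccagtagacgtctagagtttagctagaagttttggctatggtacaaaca
Omd, chr13:49582212-49582461, plus strand: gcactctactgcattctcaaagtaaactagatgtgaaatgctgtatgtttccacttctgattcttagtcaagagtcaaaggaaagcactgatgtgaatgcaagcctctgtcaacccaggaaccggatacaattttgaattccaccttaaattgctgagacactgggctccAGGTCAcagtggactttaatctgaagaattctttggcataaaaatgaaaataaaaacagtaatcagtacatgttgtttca
Ogn, chr13:49607765-49608014, plus strand: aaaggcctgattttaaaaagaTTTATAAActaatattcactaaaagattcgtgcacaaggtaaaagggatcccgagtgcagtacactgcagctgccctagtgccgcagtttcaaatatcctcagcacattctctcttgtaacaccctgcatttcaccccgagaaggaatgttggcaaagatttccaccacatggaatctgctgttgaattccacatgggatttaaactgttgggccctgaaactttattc
The Omd stretch holds AGGTCA starting 80 bases before the start, the Aspn stretch holds TATAAA and TTTATA at 207 and 178 bases, and the Ogn stretch holds TTTATA and TATAAA at 229 and 227 bases, which overlap. Of 8 member promoters of 7 genes in the table, 2 held the AGGTCA motif (Omd and 1 of 2 starts of Podn) and 2 the TATAAA motif. Over all 32851 promoters the shares were 14.0% and 12.4%. A match of letters is not a bound site, and Dcn and Lum had no entry in the table.

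Each gene is read by 1 probe, so the tests compared levels between samples and not between genes. The multiples of background given next order the genes by distance from background, not by amount of RNA. The negative-probe row of a region, the mean of probes with no target in the mouse, gives the background. Dcn stood farthest above it, at a median of 23.8 times the negative row in epithelium and 203 times in stroma, and it exceeded the row in all 95 regions. Bgn stood at 8.64 and 49.1 times, Lum at 4.16 and 18.2 times, and Ogn at 3.62 and 18.6 times. These 4 genes were above the row in 58 to 60 of 60 epithelium regions and in all 35 stroma regions. The other 5 stood near the background. Aspn was at 2.23 and 3.84 times the row, Fmod at 1.57 and 2.34, Podn at 1.48 and 2.53, Omd at 1.501 and 1.99, and Prelp at 1.204 and 2.05. Prelp was above the negative row in only 38 of 60 epithelium regions, so its epithelial level, like those of Fmod, Omd and Podn, is partly background.

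All 9 SLRPs were lower in epithelium than in stroma of the same animals. Dcn, whose core protein wraps collagen fibrils and holds TGF-beta, differed most, at 10.1-fold. Bgn, its closest relative and a known ligand of toll-like receptors, was 5.99-fold lower in epithelium. Ogn and Lum, both collagen-binding, were 5.81-fold and 5.36-fold lower. Aspn, Prelp, Omd, Fmod and Podn were lower by less than 2-fold. The comparison had 13 animals with both compartments, with the animal as a block in edgeR's quasi-likelihood test, and p-values adjusted over all 14881 targets (Benjamini-Hochberg). In it 34.6% of all targets were lower in epithelium at an adjusted p under 0.05 and 28.4% higher, and the median difference of all targets was -0.05 on the log2 scale.

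Dcn was 5.14, 6.86 and 7.67 log2 CPM (lowest, median and highest of 13 epithelium sums) and 8.44, 10.14 and 11.36 in stroma. The compartments did not overlap, and the difference within an animal ran from -4.78 in PV1 to -2.39 in WT2. The fitted difference was -3.34 ± 0.19 log2 units (SE, adjusted p = 3.41e-11, edgeR). Bgn was 3.99, 5.55 and 6.10 log2 CPM in epithelium and 7.05, 7.93 and 9.24 in stroma, again without overlap, with a difference of -2.58 ± 0.17 (adjusted p = 1.99e-10, edgeR). Dcn, Bgn and Lum were lower in epithelium in each of the 13 animals, as were 9.99% of all targets. Lum was 3.82, 4.53 and 6.18 log2 CPM in epithelium and 5.61, 7.18 and 8.96 in stroma, so its compartments overlapped between animals though not within one. Its fitted difference was -2.42 ± 0.19 (adjusted p = 2.27e-09, edgeR).

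Ogn was 3.04, 4.56 and 5.86 log2 CPM in epithelium and 4.40, 7.17 and 9.11 in stroma. It was lower in epithelium in 12 of 13 animals, by 1.56 to 4.13 log2 units, and higher by 1.12 in PV2, the animal with the fewest counts. The fit gave -2.54 ± 0.19 (adjusted p = 1.31e-09, edgeR). The 5 genes near the background differed by -0.87 ± 0.16 for Aspn, -0.79 ± 0.20 for Prelp, -0.66 ± 0.15 for Omd, -0.64 ± 0.12 for Fmod and -0.52 ± 0.14 for Podn (edgeR, adjusted p from 0.0001428 to 0.00316). Aspn and Podn were lower in epithelium in 12 of 13 animals, Fmod in 11, and Prelp and Omd in 10. PV2 was among the exceptions for Fmod and Omd, by 0.53 each, with no read of either in epithelium and a count of 1 in stroma. The negative row was itself lower in epithelium, at a median of 2.02 log2 CPM in PV and 2.31 in WT. In stroma its medians were 2.80 and 2.85, and the ranges of the compartments overlapped. With that row subtracted per region these differences became -1.18 for Aspn, -1.42 for Prelp, -1.18 for Omd, -1.09 for Fmod and -0.94 for Podn. The part of the background in the differences before subtraction was not tested. With the regions of both plates summed as labelled, the calls of Fmod (-0.17), Aspn (-0.22), Omd (-0.09) and Podn (-0.17) were lost, while Dcn, Bgn, Lum, Ogn and Prelp were still called.

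**Figure D1:**
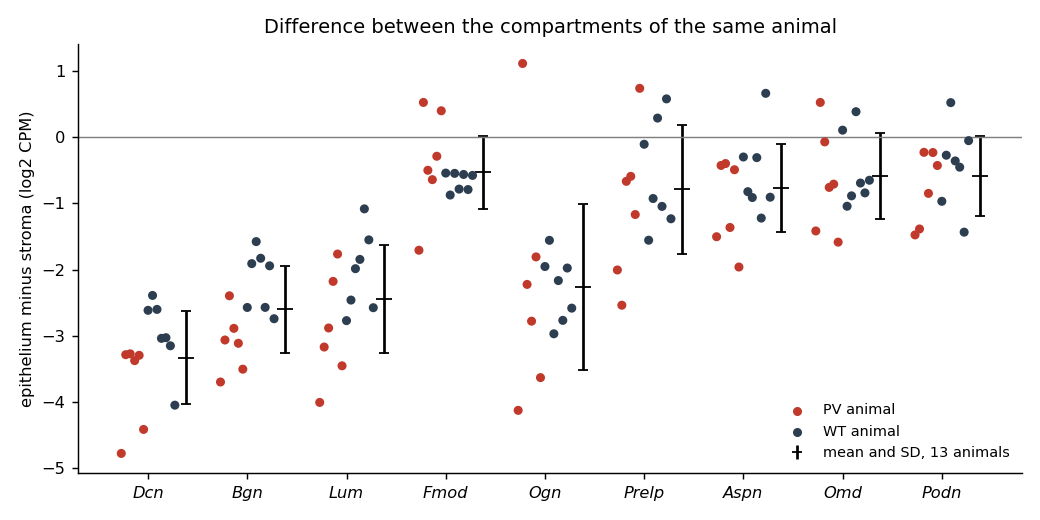
Difference between epithelium and stroma of the same animal in log2 CPM, 1 point per animal (PV red, WT dark), with the mean and SD over 13 animals as bars. Dcn, Bgn and Lum lie below 0 in every animal, Ogn in all but PV2, and the other 5 genes lie nearer to 0.

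The genes around the family in the matrix were mostly lower in epithelium too, to be read beside the 34.6% of all targets called lower and 28.4% called higher. Of 17 measured genes of the collagen network (collagens and proteins that cross-link or link fibrils), all 17 were lower in epithelium, with a median difference of -2.67 on the log2 scale, from Tnxb (tenascin-X) at -3.16 to Col14a1 at -0.58. Of 4 other measured genes of the SLRP family, 3 were lower, with Ecm2 at -1.16, the gene 11.7 kb before Aspn, and Podnl1 at -0.80. Proteases and enhancers that mature or cleave the core proteins were lower for 11 of 13, from the gelatinase Mmp2 at -2.90, and higher for 1, the procollagen proteinase enhancer Pcolce2 at 0.53.

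The enzymes that build the sugar chains were called in both directions. Of 21 enzymes of the linker and of chondroitin and dermatan sulfate, 15 were lower in epithelium and 3 higher, from the chondroitin synthase Chsy1 at -2.20 to the linker kinase Fam20b at 0.96. Of 6 keratan sulfate enzymes, 3 were lower and 1 higher, from the sulfotransferase Chst2 at -0.82 to B3gnt2, which extends the chain, at 0.97. Of 18 growth factors and receptors that SLRPs are known to bind, 13 were lower and 2 higher, from Lrp1, the endocytic receptor of decorin, at -2.94 to Cd14, a co-receptor of toll-like receptors, at 2.42. Of 15 proteoglycans outside the family, 9 were lower and 2 higher, from Gpc1 at -2.08 to Sdc4 at 1.38. The 9 SLRPs had a median of -0.87, and the 8 fibroblast markers one of -2.84. In a region that holds many cells, fewer cells of a type and less RNA per cell cannot be told apart.

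In epithelium no target of 14881 passed an adjusted p of 0.05 between PV and WT (0% of targets, edgeR), while 3.8% were lower in PV and 4.42% higher at an unadjusted p under 0.05. Dcn was the only SLRP past the unadjusted threshold. It was 5.02, 6.43 and 6.56 log2 CPM (lowest, median and highest of 6 PV animals) and 6.70, 7.22 and 7.54 in 8 WT animals. Each PV animal lay below each WT animal, as for 0.0874% of all targets, while 0.0672% were separated the other way. The gap between the groups was narrow, from PV6 at 6.56 to WT2 at 6.70, and PV5 lay lowest at 5.02. The fitted difference was -0.94 ± 0.22 log2 units, a 1.91-fold lower level (edgeR, p = 0.0005963, adjusted p = 0.3223), the 27th smallest p of all targets. The exact two-sided permutation test over 3003 divisions of the animals gave p = 0.000333, the smallest it can give, and 0.3097 adjusted over all targets. DESeq2 on the same sums gave -0.91 with an adjusted p of 0.03248, so the call depends on the test. With both plates summed as labelled the difference was 0.32.

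Fibroblast and squamous markers were read beside Dcn in epithelium. The mean log2 CPM of the 8 markers was 4.81, 5.87 and 5.95 in PV (lowest, median and highest) and 5.16, 6.18 and 6.97 in WT, with overlap (difference -0.55, exact permutation p = 0.07892). Their summed level was 298 to 1243 CPM in PV and 335 to 1520 CPM in WT, none was at 0, and 3 of 8 were lower in PV at an unadjusted p under 0.05 and 0 at an adjusted one. Of 6 squamous markers, Krt13 and Sprr1a were among the kept targets, and their mean was 3.67, 4.56 and 5.57 log2 CPM in PV and 3.48, 3.98 and 4.26 in WT (difference 0.63, exact permutation p = 0.04662). Their summed level was 25.6 to 136 CPM in PV and 22.4 to 51.3 CPM in WT, and neither was at 0. Over 60 epithelium regions Dcn had r of -0.42 with the squamous mean, and -0.56 with animal means subtracted. WT4 had the lowest marker mean of the WT animals, 5.16, with Dcn at 7.49. With the marker mean as a covariate the Dcn difference was -0.92 (edgeR, adjusted p = 0.315). The difference of mean log2 CPM was -1.01, and -0.46 with the marker mean subtracted from each animal's Dcn level (exact permutation p = 0.2368). With age as a covariate the fitted Dcn difference was -1.001 (edgeR, adjusted p = 0.1669). The part of the squamous markers in the Dcn difference was not tested, nor that of the fibroblast markers beyond these values.

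**Figure D2:**
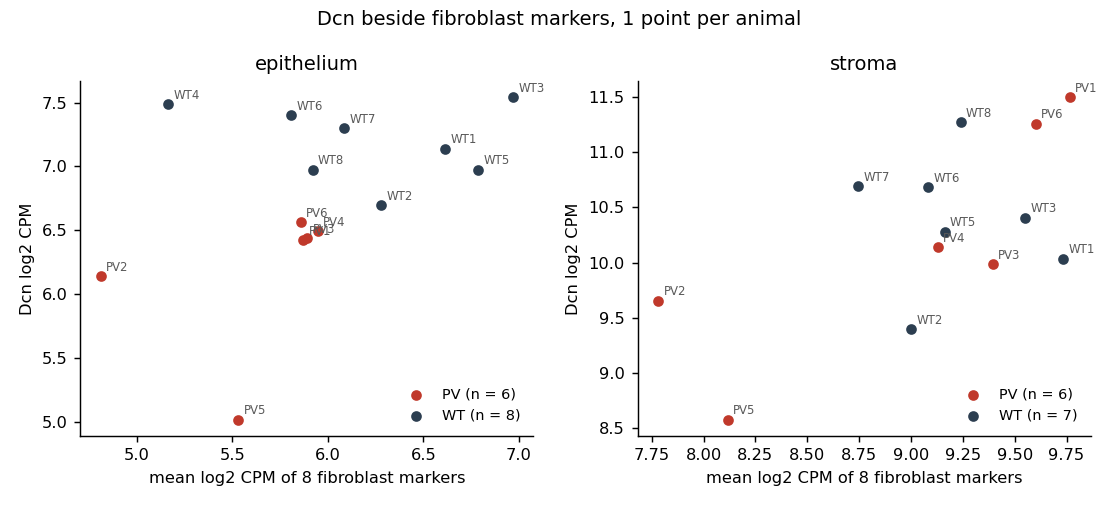
Dcn log2 CPM against the mean log2 CPM of 8 fibroblast markers in epithelium (left) and stroma (right), 1 labelled point per animal, PV red and WT dark. In epithelium all 6 PV animals lie below all 8 WT animals on the Dcn axis and the groups overlap on the marker axis, and in stroma the groups overlap on both.

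The other 8 SLRPs overlapped between PV and WT in epithelium. Ogn was 2.86, 4.15 and 5.41 log2 CPM in PV and 3.51, 5.04 and 5.74 in WT, with a difference of -0.78 ± 0.42 (edgeR, adjusted p = 0.6387). Lum was 3.65, 4.25 and 5.13 in PV and 3.73, 5.08 and 6.01 in WT, with a difference of -0.61 ± 0.35 (edgeR, adjusted p = 0.6636). Both ranges lay mostly within each other. Omd differed by -0.45 ± 0.27, Aspn by -0.17 ± 0.32, Bgn by -0.16 ± 0.22, Podn by -0.14 ± 0.30, Fmod by -0.10 ± 0.30 and Prelp by 0.55 ± 0.38, all within about 2 SE. The median over the 9 genes was -0.17, beside -0.01 over all targets. PV2 rests on few reads, with a Dcn count of 5 and a Lum count of 1 in epithelium. Its counts there of Bgn, Fmod, Prelp, Omd and Podn were 0 before the authors replaced zeros by 1. The replaced count set PV2 at 3.86 log2 CPM for each, the lowest PV value for Bgn and the highest for Omd.

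In stroma no target passed either (0% of targets, edgeR), with 1.4% lower in PV and 2.12% higher at an unadjusted p under 0.05. Bgn was the only SLRP past the unadjusted threshold. It was 7.17, 8.67 and 9.39 log2 CPM in 6 PV animals and 7.45, 7.98 and 8.58 in 7 WT animals. The groups overlapped, with 4 of 6 PV animals above the WT median. The difference was 0.67 ± 0.31 (edgeR, p = 0.04342, adjusted p = 1.0), and the exact permutation p was 0.1976. The difference of mean log2 CPM, which the permutation test used, was 0.49. With the fibroblast marker mean subtracted it was 0.75 (exact permutation p = 0.02273, before adjustment). Endothelial markers were 0.41 log2 units higher in PV stroma (exact permutation p = 0.005245), at 5.69 to 6.67 against 5.24 to 5.72, and smooth muscle markers were 5.98 to 7.47 against 5.25 to 6.85 (exact permutation p = 0.3159). Their part in the Bgn value was not tested.

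Dcn did not separate the genotypes in stroma. It was 8.57, 10.06 and 11.50 log2 CPM in PV and 9.40, 10.41 and 11.27 in WT, with a difference of 0.01 ± 0.41 (edgeR, adjusted p = 1.0). Lum differed by 0.01 ± 0.48 and Ogn by -0.12 ± 0.57. These standard errors leave room for changes of about 2-fold either way, so the values do not show that the genotypes were alike. Prelp was 3.37, 4.83 and 6.65 log2 CPM in PV and 2.80, 3.79 and 4.69 in WT (0.70 ± 0.47). The 3 highest values were PV2, PV1 and PV5, on counts of only 9, 20 and 28. With animals of at least 2 regions the Prelp difference was 0.37 ± 0.47. Aspn differed by 0.46 ± 0.32, Podn by 0.22 ± 0.31, Omd by 0.02 ± 0.31 and Fmod by -0.21 ± 0.32. None of the 9 genes was separated between the groups, and 0.0202% of all targets were separated with PV below and 0.0269% with PV above. Among the companion lists no gene passed the adjusted test between genotypes in either compartment.

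**Figure D3:**
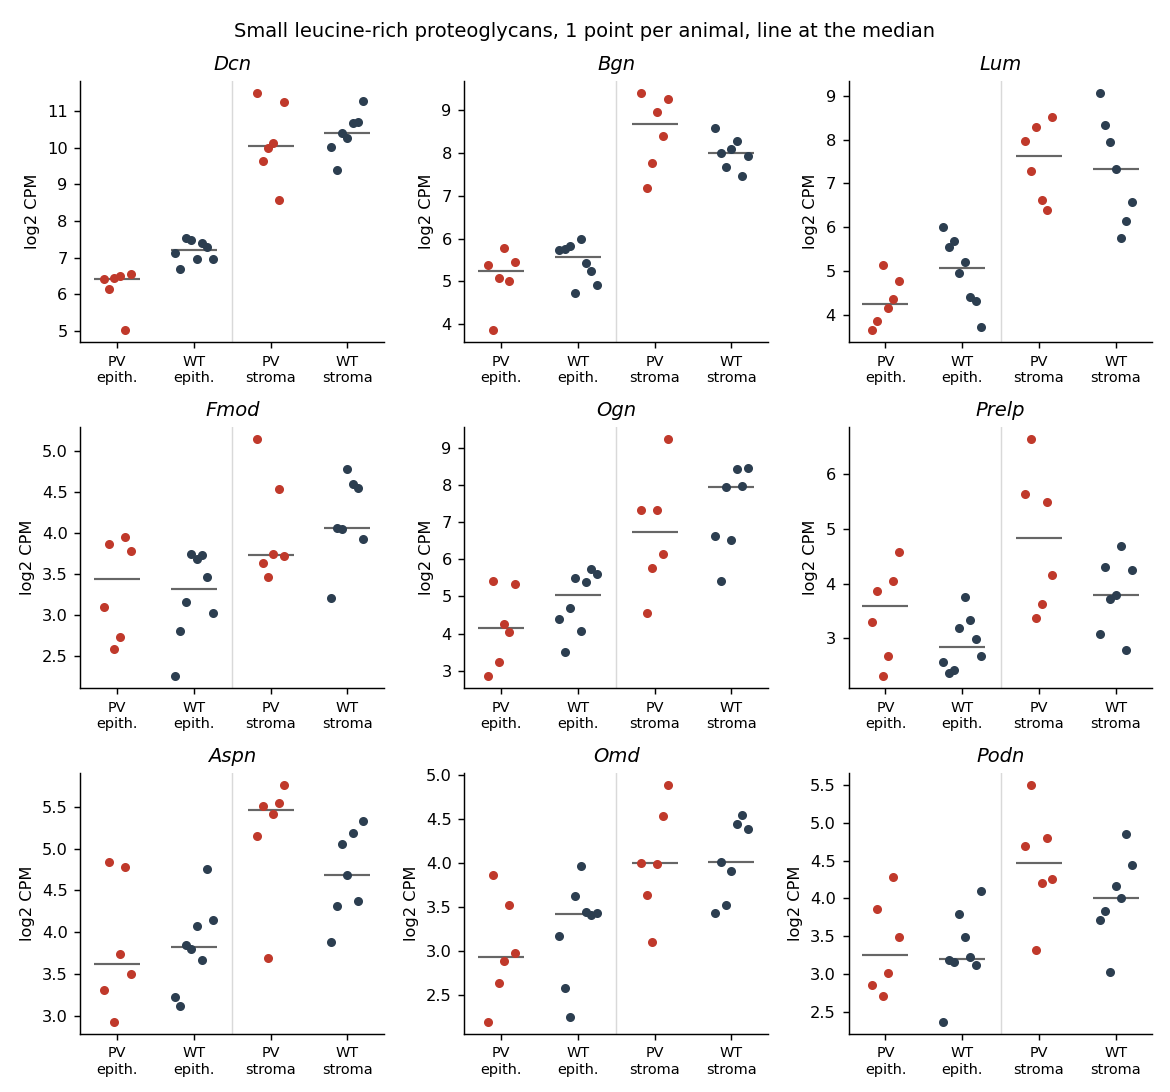
Level of each SLRP in log2 CPM, 1 point per animal, for PV and WT epithelium and stroma, with lines at the group medians. The y axes differ between panels, the stroma medians lie above the epithelium medians for all 9 genes, and only Dcn in epithelium has PV and WT points that do not overlap.

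Whether the genotype difference itself differed between the compartments was tested as an interaction within the same 13 animals. No target passed the adjusted threshold (0% of targets, edgeR), with 3.88% lower and 3.29% higher at an unadjusted p under 0.05. Bgn had a PV minus WT difference 0.93 ± 0.26 log2 units lower in epithelium than in stroma (interaction p = 0.002084, adjusted p = 0.5794, edgeR). Dcn had one lower by 0.82 ± 0.32 (p = 0.01781, adjusted p = 0.6065, edgeR) and Lum one lower by 0.76 ± 0.34 (p = 0.03969, adjusted p = 0.6786, edgeR). The other 6 ran from -0.51 for Ogn to 0.18 for Fmod. The largest gaps between compartments were in PV animals, with Dcn at -4.78 and Lum at -4.01 in PV1. On the same scale smooth muscle markers had a median of -0.60 with 3 of 7 past the unadjusted threshold, fibroblast markers -0.55 with 3 of 8, and endothelial markers -0.46 with 3 of 6. Their part in these values was not tested.

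Age differed between the animals and between the genotypes, so a slope per month was fitted beside genotype. Lum and Ogn went opposite ways. Lum had a slope of -0.29 ± 0.10 log2 units per month in epithelium (edgeR, p = 0.008065, adjusted p = 0.1984) and -0.30 ± 0.13 in stroma (p = 0.03885, adjusted p = 0.3293). Ogn had 0.36 ± 0.11 in epithelium (edgeR, p = 0.003181, adjusted p = 0.1484) and 0.44 ± 0.15 in stroma (p = 0.007977, adjusted p = 0.2127). Neither passed the adjusted threshold, which 0.0605% of targets passed in epithelium and 0.175% in stroma. At an unadjusted p under 0.05, 6.77% of targets were lower with age in epithelium and 7.47% higher, and 6.81% and 7.45% in stroma. Aspn (0.25 ± 0.09) and Podn (0.25 ± 0.08) were also past the unadjusted threshold in epithelium, and Aspn (0.22 ± 0.09) and Omd (0.24 ± 0.08) in stroma. DESeq2 gave Ogn in epithelium an adjusted p of 0.03277, and without PV6 edgeR gave Lum in stroma -0.49 with an adjusted p of 0.04629.

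Within the WT animals Lum fell with age. In WT stroma Lum was 9.06 log2 CPM at 4.0 months, 8.32 at 4.5, 7.94 at 5.0, 7.33 and 5.76 at 6.3, 6.13 at 7.4 and 6.58 at 9.0. The 3 youngest WT animals lay above the 4 oldest. A fit to WT animals only, chosen after these values were seen, gave -0.52 ± 0.11 per month in stroma (edgeR, adjusted p = 0.01229), where 2.23% of all targets were called lower with age. In epithelium it gave -0.46 ± 0.06 over 8 animals (edgeR, adjusted p = 0.01097), with 0.491% of targets called lower. Lum was the only SLRP called in either fit, and Dcn in stroma had 0.28 ± 0.08 (edgeR, adjusted p = 0.05903). Leaving out WT animals 1 at a time kept the Lum slope between -0.50 and -0.44 in epithelium and between -0.89 and -0.41 in stroma. Its adjusted p rose above 0.05 without WT1, the youngest WT animal (edgeR, 0.1065 in epithelium, 0.1503 in stroma). In epithelium it was also above 0.05 without WT8, the oldest (0.1519).

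Lum in PV stroma was 7.98 and 7.28 log2 CPM at 2.4 months, 8.29 at 4.0, 6.62 at 4.2, 6.39 at 5.9 and 8.52 at 6.3, without an order by age. A fit to the 6 PV animals gave 0.15 ± 0.15 per month in epithelium and 0.05 ± 0.19 in stroma (edgeR, adjusted p = 0.9999 and 0.9998). The slope in PV minus the slope in WT was 0.59 ± 0.15 in epithelium (edgeR, p = 0.001509, adjusted p = 0.6187) and 0.56 ± 0.23 in stroma (p = 0.02641, adjusted p = 0.7083), so a difference between the genotypes did not pass the adjustment. PV animals were younger, and no PV animal was past 6.3 months. Beside the WT slopes, the fibroblast markers had medians of -0.11 in epithelium and -0.09 in stroma with 0 and 1 of 8 called lower, and the collagen network -0.11 and -0.07 with 0 and 2 of 17 called higher. In WT stroma the leukocyte markers had a median of 0.37 with 4 of 5 called higher, smooth muscle markers 0.29 with 2 of 7, and endothelial markers 0.04 with 1 of 6. In WT epithelium 1 of 2 squamous markers was called higher. These counts are to be read beside the 14881 targets as a whole, which had a median slope of 0.01 in each WT fit. Of these targets, 798 were called in either direction in WT stroma and 217 in WT epithelium. The part of these marker and collagen lists in the Lum slope was not tested.

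Ogn kept its sign in both genotypes. It had 0.32 ± 0.11 per month in WT epithelium and 0.39 ± 0.14 in WT stroma (edgeR, adjusted p = 0.1757 and 0.1253), and 0.45 ± 0.19 and 0.51 ± 0.23 in PV (adjusted p = 0.9845 and 0.9912). In WT stroma Ogn was 6.63 log2 CPM at 4.0 months, 5.41 at 4.5, 7.93 at 5.0, 6.52 and 8.42 at 6.3, 7.96 at 7.4 and 8.44 at 9.0.

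**Figure D4:**
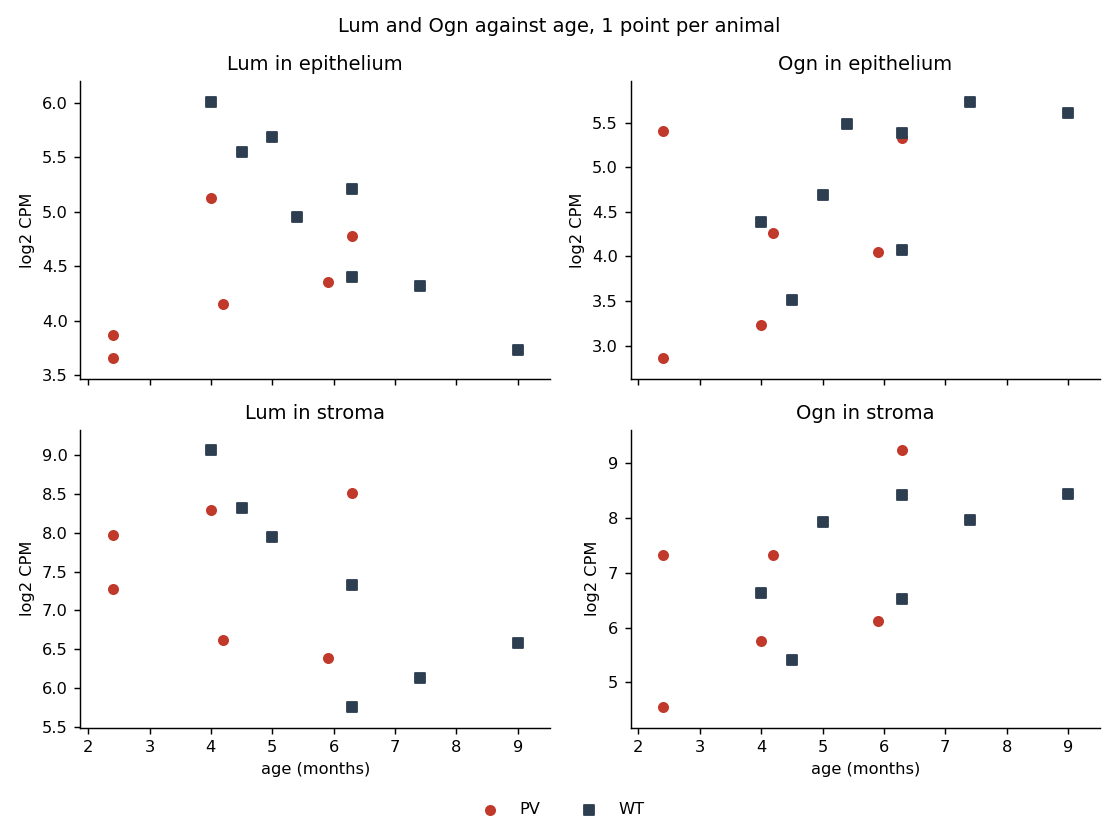
Lum (left) and Ogn (right) in epithelium (top) and stroma (bottom) in log2 CPM against age in months, 1 point per animal, PV as red circles and WT as dark squares. Lum in WT runs from 9.06 at 4.0 months to 6.58 at 9.0 in stroma, with no such order in PV, and Ogn in WT is higher in most older animals.

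Regions of 1 animal were compared on the authors' normalised scale, log2(Q3 value + 1), in which a region's counts are divided by its own upper quartile. The SD within animals used those with more than 1 region, 10 in stroma and 13 in epithelium. The SD between animal means used all, 13 and 14, so it also holds the noise of animals with 1 region. Dcn varied more between animals than within them in stroma, with an SD of 0.35 within animals and 0.77 between animal means. In epithelium its SD was 0.68 within animals and 0.61 between, and the 15 epithelium regions of PV4 alone ran from 4.39 to 7.89 (median 5.60). Lum (0.57 within, 1.04 between), Ogn (0.73 and 1.35) and Prelp (0.52 and 1.18) also varied mostly between animals in stroma, while Omd (0.53 and 0.54) and Fmod (0.65 and 0.68) did so about equally.

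Which SLRPs went together over the stroma depended on whether animals or regions were compared. Lum and Ogn had a Pearson r of -0.12 over 35 stroma regions and 0.72 over 32 regions after each animal's mean was subtracted. Bgn and Lum went from 0.13 to 0.81 and Lum and Aspn from -0.18 to 0.65 in the same way. Thus Lum and Ogn were high in the same regions of an animal but not in the same animals. In PV4, with 10 stroma regions, r was 0.83 for Lum and Ogn, 0.89 for Bgn and Lum, and 0.90 for Bgn and Ogn. Of the 36 pairs, 6 had r over 0.4 on both scales, a limit set after the values were seen. These were Dcn and Ogn (0.73 and 0.64), Aspn and Omd, the chromosome 13 neighbours (0.72 and 0.68), Fmod and Prelp, the chromosome 1 neighbours (0.57 and 0.53), Bgn and Ogn (0.46 and 0.68), Bgn and Aspn (0.51 and 0.45), and Ogn and Aspn (0.52 and 0.44). Over epithelium regions Dcn and Ogn had 0.64 (60 regions) and, with animal means subtracted, 0.72 (59 regions). Aspn and Omd had 0.37 and 0.06 there, and Fmod and Prelp 0.51 and -0.02, so neither pair went together within animals in epithelium. Dcn and Lum, the chromosome 10 neighbours, had 0.08 and 0.52 over stroma regions, and 0.30 and 0.42 over epithelium regions. The points share animals, slide and depth, low genes share background, and these values are descriptions.

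**Figure D5:**
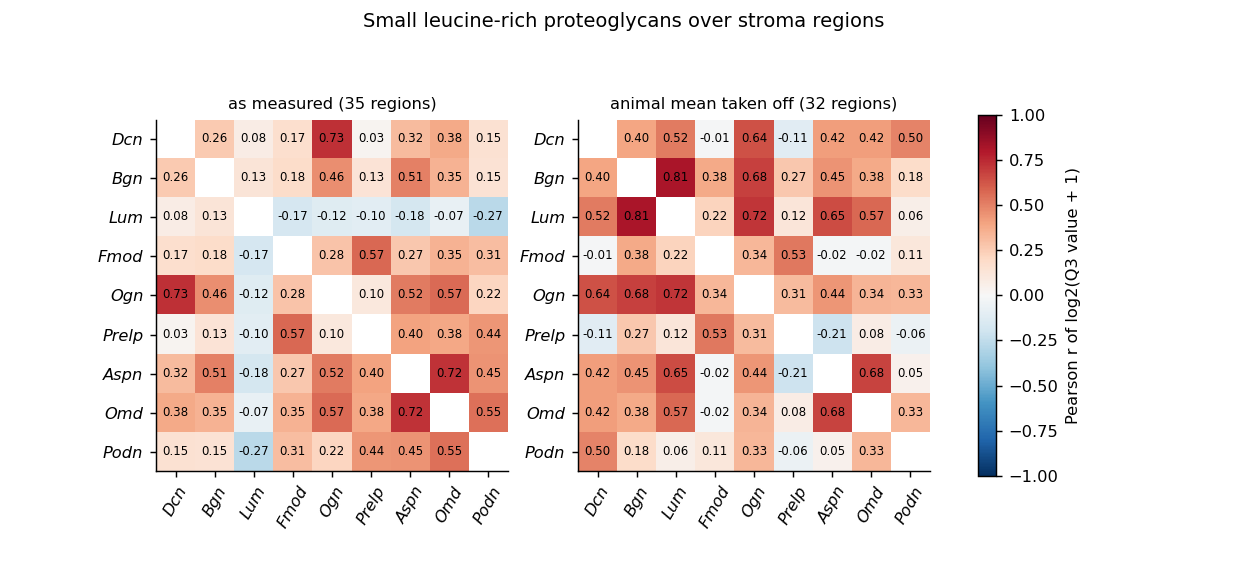
Pearson r between SLRPs over stroma regions on the log2(Q3 value + 1) scale, as measured (left, 35 regions) and after each animal's mean was subtracted (right, 32 regions of animals with more than 1). The row of Lum is mostly below 0 on the left and mostly above 0 on the right, where Bgn and Lum reach 0.81.

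Fibroblast, endothelial and smooth muscle markers went with Dcn, Bgn, Lum and Ogn over epithelium regions, and leukocyte markers did not. In epithelium the mean of the fibroblast markers had r of 0.59 with Dcn, 0.71 with Bgn, 0.54 with Lum and 0.26 with Ogn over 60 regions. After each animal's mean was subtracted (59 regions) these were 0.83, 0.72, 0.47 and 0.74, and those with the epithelial markers were -0.68, -0.64, -0.64 and -0.64. On that scale endothelial markers had 0.62 with Dcn, 0.62 with Bgn, 0.45 with Lum and 0.70 with Ogn. Smooth muscle markers had 0.42, 0.61, 0.56 and 0.46, and squamous markers -0.56, -0.40, -0.45 and -0.49. Leukocyte markers had -0.02 with Dcn, 0.08 with Bgn, -0.01 with Lum and -0.16 with Ogn. In stroma Bgn went with the fibroblast markers within animals (0.83) and with smooth muscle markers (0.79), while Dcn had 0.08 and 0.58. Leukocyte markers there had -0.69 with Bgn, -0.44 with Lum, -0.25 with Ogn and 0.21 with Dcn within animals. Prelp, Omd and Podn had r of 0.18 or less with fibroblast markers in epithelium on either scale.

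Over the 13 stroma sums, with the genotype mean subtracted, the targets most like each gene were found by Pearson r among all kept targets. Those for Dcn were Zeb2 (0.94), Itm2b (0.93) and Plscr4 (0.91), and those for Ogn were Adamts2 (0.95), the procollagen N-proteinase, Tmbim1 (0.91) and Serping1 (0.91). Lum was most like Tsr2 (0.96), Larp7 (0.94) and Ssb (0.92), and Bgn most like Psen2, Mpst and Plp2 (0.91 each). Among SLRPs Dcn was most like Ogn (0.74), and Lum had its lowest value with Podn (-0.52). The nearest targets of Fmod (Syn3, Cntn1, Adh7), Prelp (Adcy2, Ddx43), Omd (Wdr93, Pf4, Taar9), Aspn (Rdm1, Hspb7, Cyp4v3) and Podn (Rhebl1, Olfr172, Fam131b) had r of 0.85 to 0.95 and median levels of 3.78 to 5.11 log2 CPM, a range that also holds Tsr2 (4.82) and Larp7 (5.11) of Lum and Psen2 (4.80) and Mpst (4.99) of Bgn. The highest r among so many targets over 13 sums is high for any gene, so these are a description.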

How the data were processed

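Probe counts of GeoMx regions were analysed. Per target, the authors deposited expected counts, in which a 0 had been set to 1. They also deposited normalised signal values, each count over the upper-quartile factor (Q3) of its region, for targets that passed their detection limit. The submitters' processing notes name R 4.1.2, Space Ranger and build mm10. Per-region probe count files matched 19959 targets and served as an alternative.

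First-plate counts were summed per animal and compartment and rounded, without the negative-probe row (0.000508% of counts). edgeR 4.0.16 (TMM, quasi-likelihood) in R 4.3.3 was the main test, with an adjusted p threshold of 0.05 over 14881 targets. SEs were the log2 fold change over the root of F, and log2 CPM used a prior count of 2. The scale was set within a compartment for genotype and age, and over all sums for compartments. Exact permutation tests divided the animals. The scripts were tested on simulated data. DESeq2 1.42.0, limma 3.58.1, other scalings, filters, covariates and animals left out were alternatives. Fits of age to 1 genotype, and of genotype by age, were chosen after seeing the data.

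Epithelium and stroma sums of an animal deviated together from their group means (r 0.15 to 0.52, median 0.29, in 13 of 13 animals over 0.1, against a median of -0.04 between animals), which with the animal labels gives the block. The members and gene lists were chosen with earlier results of these data known. Genes named are the 9 members, the lowest and highest of each list among those called, and the 3 targets most like each member, of which 1 is not reported here. The labels name 14 animals and the design text 13. Genotype and age p-values set a difference against the spread between these animals. Compartment and interaction p-values set it against the spread of differences within animals.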

Additional observations from a re-analysis of the deposited data

Results flagged for a closer look

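Dcn in the epithelium of PV5 was 5.02 log2 CPM, far below the other 5 PV animals at 6.14 to 6.56, and it rests on a count of 32 in 2 regions. Aspn in the stroma of PV3 was 3.69 log2 CPM, far below the other 5 PV animals at 5.15 to 5.77, on a count of 32 in 4 regions. These 2 values stood apart among 36 groups of animals examined by the gap between an extreme animal and its nearest neighbour, a rule that flags about 1 in 20 groups by chance. Without PV5 the Dcn difference between PV and WT in epithelium was -0.76 log2 units.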

How the results depend on the processing

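All 9 SLRPs stayed lower in epithelium under each alternative. Without the replicate block the compartment test called 7952 targets instead of 9380, with all 9 members among them, and the interaction called 0 (no replicate block) as with it. Both plates as labelled gave 5631 compartment calls. Targets called between PV and WT in epithelium were 28 by DESeq2 and 10 with age as a covariate (0 in the main test), in stroma 2 by DESeq2, and for the interaction 1 by DESeq2. Targets called for age were 9 in epithelium and 26 in stroma. They became 381 and 410 by DESeq2, 1 and 52 with upper-quartile scaling, 1 and 0 with negative probes subtracted, with both plates, or with animals of at least 2 regions, 217 and 798 in WT only, and 0 and 0 in PV only. In epithelium they were 30 with filterByExpr or no filter and 0 by limma. Leaving out 1 animal at a time gave 0 to 6 (epithelium) and 0 to 1 (stroma) genotype calls, and 1 to 206 and 0 to 184 age calls.

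PV minus WT in epithelium turned with both plates for Dcn (0.32), Bgn (0.38), Lum (0.17), Ogn (0.53), Aspn (0.19), Omd (0.22) and Podn (0.24), with age for Fmod (0.13), Aspn (0.22) and Podn (0.26), by limma for Fmod (0.20), Aspn (0.11) and Podn (0.0849), with negative probes subtracted for Fmod (0.046), and with the fibroblast covariate for Bgn (0.17). In stroma it turned for Dcn with upper-quartile scaling (-0.0469), limma (-0.22), negative probes subtracted (-0.0021), both plates (-0.48) and the fibroblast covariate (-0.024). It turned for Lum by DESeq2 (-0.0072), with filterByExpr (-0.0351), no filter (-0.043), negative probes subtracted (-0.0214), both plates (-0.53), animals of at least 2 regions (-0.0869) and age (-0.23). Ogn turned with at least 2 regions (0.18) and age (0.58), and Omd with no filter (-0.0045), limma (-0.0584), both plates (-0.24) and the fibroblast covariate (-0.0532). The interaction turned with both plates for Dcn (0.62), Bgn (0.17) and Lum (0.31). With the fibroblast mean subtracted, the differences of mean log2 CPM turned in epithelium for Bgn (-0.355 to 0.20) and Omd (-0.22 to 0.33). In stroma they turned for Omd (-0.0091 to 0.24), Dcn (-0.21 to 0.0424) and Fmod (-0.12 to 0.13). Before that step the edgeR fits had the other sign in epithelium for Fmod (0.10, edgeR -0.10), Aspn (0.02, -0.17) and Podn (0.06, -0.14). In stroma they did for Dcn (-0.21, edgeR 0.01) and Omd (-0.0091, edgeR 0.02). In PV animals only, the Lum age slope was 0.15 in epithelium and 0.0486 in stroma. Leaving out 1 animal gave ranges across 0 in epithelium for Fmod (-0.32 to 0.0919), Prelp (-0.0055 to 0.84), Aspn (-0.46 to 0.0395) and Podn (-0.40 to 0.0536), and in stroma for Dcn (-0.32 to 0.21), Lum (-0.25 to 0.44), Ogn (-1.04 to 0.0872) and Omd (-0.25 to 0.28). The causes were not tested. Depth is lowest in PV2, with sums of 61691 and 85336 counts, where Bgn, Fmod, Prelp, Omd and Podn had no read in epithelium.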
